A study of Homo sapiens with 24 samples.

Results

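The genes described here lie in the first 20 Mb of chromosome 18, from the end of the short arm to the centromere, and comprised 70 of the 60675 genes counted. They were chosen by position, as the genes of chromosome 18 that end at or before 20 Mb, and by level, with at least 10 counts on average over the 12 ACHN libraries. Of 372 genes annotated in that stretch, 70 passed this count minimum, as did 16206 genes over the whole genome. The stretch itself was picked because its genes shifted together in ACHN cells with the YY1 hairpin, so the ACHN comparison of shYY1 with shNC is given as a description, without a test. The members comprised 47 protein-coding genes, 15 long non-coding RNAs, 5 pseudogenes, 1 small nuclear RNA and 2 genes for which the annotation used here gave no type.

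RNA from 24 cultured samples was sequenced to ask how the histone demethylase KDM5C and the transcription factor YY1, singly and together, act on gene expression in kidney cells. KDM5C removes methyl groups from lysine 4 of histone H3, and YY1 is a zinc finger protein that both activates and represses genes. There were 2 cell lines with 4 groups of 3 libraries each. ACHN is a human renal carcinoma line, which the labels call ccRCC, and HK2 (HK-2) is an immortalised human kidney tubule line. The shNC cells carried a control hairpin, the shKDM5C cells a hairpin against KDM5C and the shYY1 cells a hairpin against YY1, each delivered by lentivirus and kept under puromycin selection, so that the controls had the same vector and drug. The double-knockdown (Dsh) cells were YY1-depleted cells infected again with a GFP-labelled KDM5C hairpin vector and selected for puromycin resistance and green fluorescence, a second step that the other groups did not have. All cells grew in DMEM with fetal bovine serum. The sources used here do not say which of the study's hairpins was used for sequencing, or whether the replicates were separate cultures, so the p-values below measure the spread between these samples, which may be technical.

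The short arm of chromosome 18 is a small arm on which genes of many functions lie side by side. They encode a kinetochore subunit, thymidylate synthase, myosin light chains, a laminin chain, receptor phosphatases and parts of the machinery that caps and exports mRNA. The members were chosen by position and level and not by function, and a common pathway was not tested for. In bulk RNA, fewer cells that express a gene and less RNA of it per cell cannot be told apart.

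Library totals ran from 17910371 to 24272298 counts in ACHN and from 15926561 to 18755684 in HK-2. The targeted genes were lower where their hairpin was present. In ACHN, KDM5C was at 69.5 ± 0.537 CPM (counts scaled to library size by TMM, mean ± SD, n = 3) in shNC, 42.1 ± 1.22 in shKDM5C and 40.1 ± 0.514 in Dsh, and YY1 was at 136.6 ± 3.92 in shNC, 75.4 ± 3.32 in shYY1 and 95.9 ± 6.69 in Dsh. In HK-2 the KDM5C level was 193.6 ± 2.89 in shNC, 57.7 ± 17.6 in shKDM5C and 68.8 ± 3.24 in Dsh, and the YY1 level 210.7 ± 6.88, 64.7 ± 3.51 in shYY1 and 74.9 ± 1.55 in Dsh. All 8 kidney epithelial markers examined, among them PAX8 and KRT18, were at 1 CPM or more in the shNC mean of both lines, although CDH1 was at 0.669 CPM in HK-2 shYY1 and 0.450 in HK-2 Dsh. Of 8 proximal tubule markers GGT1 alone reached 1 CPM in the mean of any group. Of the markers of clear cell renal cancer, CA9 was at 0.123 CPM and NDUFA4L2 at 1.40 in ACHN shNC. PTPRC, of leukocytes, was under 1 CPM in the mean of every group, and PECAM1, of endothelium, ran from 0.0134 to 1.06. COL1A1, of fibroblasts, was at 574.0 CPM in ACHN shNC and at 48.6 to 156.2 in the other ACHN groups, and at 20.6 to 31.3 in HK-2, and its part in the results was not tested. Replicate 1 of HK-2 shKDM5C stood apart from the other libraries of its group, with a chi-square per degree of freedom of 128.9 and 123.1 against them and 3.20 between the other pair. For HK-2 comparisons that use shKDM5C, the counts and medians of the members are therefore given with and without it. Other HK-2 values that rest on shKDM5C, such as those of the partner genes, include it unless stated.

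In ACHN, the summed level of the 70 genes was 2880 ± 1.89 CPM in shNC and 1804 ± 14.1 CPM in shYY1, with the shYY1 libraries between 1793 and 1820 CPM and the shNC libraries between 2877 and 2881 CPM (n = 3 each). The double-knockdown libraries lay at 3206 ± 44.3 CPM and the shKDM5C libraries at 3364 ± 19.6 CPM, both above shNC. No ACHN group overlapped another. In HK-2, where CPM were scaled separately, the sums were 3597 ± 30.5 CPM in shNC, 3486 ± 93.5 in shYY1, 3225 ± 35.3 in Dsh and 3656 ± 366 in shKDM5C, whose replicate 1 was at 4079 CPM and whose other libraries were at 3434 and 3455 CPM. The plot of summed levels shows the shYY1 libraries of ACHN as the lowest of all 24.

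**Figure D1:**
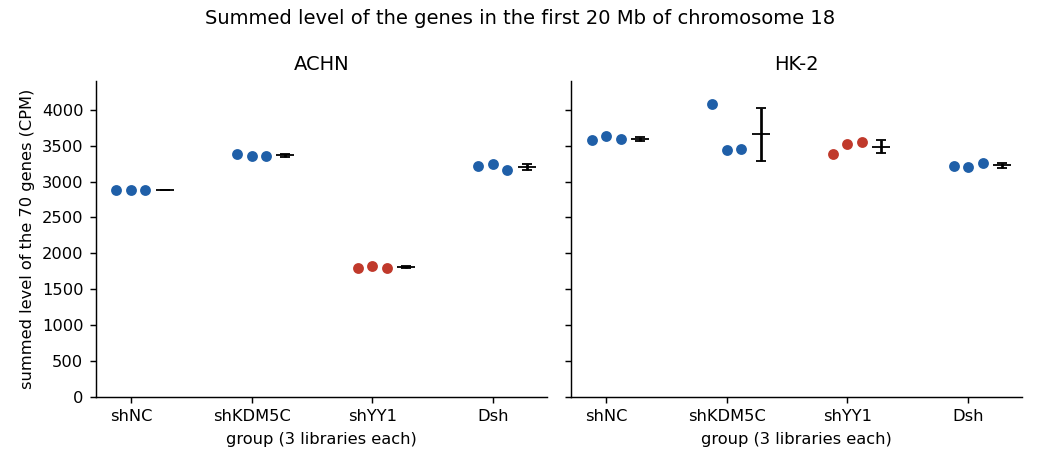
Summed level, in TMM-scaled CPM (vertical axis, from 0), of the 70 genes in each of the 24 libraries, by cell line and group. Points are libraries (shYY1 in red), and the bar beside them gives the mean and SD of 3. The ACHN shYY1 libraries sit between 1793 and 1820 CPM, below every other library, while the HK-2 shYY1 libraries sit between 3379 and 3553 CPM.

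Nearly all members were lower in ACHN shYY1 than in shNC, and most by a similar amount. Of the 70 genes, 61 passed the filter on low counts in this comparison, and their median log2 fold change (shYY1 against shNC) was -0.65, a ratio of 0.635, with the middle of the distribution from -0.78 to -0.44. In 49 of the 61 the 3 shYY1 libraries lay below all 3 shNC libraries, as did 25.9% of all 16370 genes in the fit, and in 1 they lay above, as did 29.1% of all genes. Since this contrast chose the stretch, nothing is read from that count. Fold changes of 39 genes lay between -1 and -0.4, those of 9 lay under -1, those of 11 between -0.4 and 0, and those of 2 above 0. Among the 42 members with at least 5 CPM on average, all 42 had a fold change below 0, and the per-library medians against the shNC mean were ratios of 0.654, 0.676 and 0.652 for the 3 shYY1 libraries. The median over all genes was -0.01.

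The shYY1 libraries were also set beside the shKDM5C and Dsh libraries of ACHN, which the choice of the stretch did not use. The mean of shYY1 was the lowest of the 4 ACHN groups for 58 of the 70 members, compared with 23.2% of the 16206 genes of the same count minimum. All 3 shYY1 libraries lay below all 9 other ACHN libraries for 46 of the 70 members and for 37 of the 42 members with at least 5 CPM, against 25 of the 163 genes on the rest of chromosome 18 and 10.2% of all 16206 genes. The shYY1 libraries themselves are those of the choosing contrast, so these are descriptions and carry no test.

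The lower values began at the first member from the end of the chromosome. ROCK1P1 (ENSG00000263006, chromosome 18 from 109065 to 122219), a partial copy of ROCK1 with which it can share reads, had 1.03, 1.17 and 0.585 CPM in shNC and 0.366, 0.159 and 0.439 in shYY1, a log2 fold change of -1.53. It was followed by USP14 (ENSG00000101557, chromosome 18 from 158383 to 214629) at -0.36 and THOC1 at -0.65. Towards the centromere the well-counted genes SEH1L, CEP192, FAM210A and RNMT lay at -0.88, -0.72, -0.60 and -0.68, and ZNF519 (ENSG00000175322, chromosome 18 from 14057457 to 14132490) at -0.75. No gradient along the arm was seen: over the 42 members with at least 5 CPM the Spearman correlation of fold change with start position was -0.14, given as a description across genes that share the same 6 libraries. Its correlation with mean level was -0.43 and with gene length -0.40.

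The last 3 members before the limit were pseudogenes or transcripts of low level. ANKRD20A5P (ENSG00000186481, chromosome 18 from 14179097 to 14234797), a pseudogene, had 5.55, 5.51 and 4.25 CPM in shNC and 1.73, 2.55 and 2.30 in shYY1 libraries, against 3.06, 3.39 and 2.52 in shKDM5C and 5.91, 4.69 and 5.12 in Dsh. ENSG00000264222, which ends at 14252140, had 0.874, 1.06 and 0.532 CPM in shNC, 0.366, 0.477 and 0.713 in shYY1, 0.211, 0.438 and 0.429 in shKDM5C and 0.765, 0.654 and 0.686 in Dsh. GRAMD4P7 (ENSG00000266242, chromosome 18 from 14485806 to 14487501), a processed pseudogene, had 0.874, 0.848 and 1.28 CPM in shNC, 0.941, 1.17 and 0.933 in shYY1, 0.633, 0.93 and 1.34 in shKDM5C and 0.612, 0.6 and 0.928 in Dsh, with overlapping groups and a log2 fold change of 0.00. Of these 3, ANKRD20A5P had all its shYY1 libraries below shNC, and its shKDM5C libraries lay below shNC too.

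Beyond GRAMD4P7 came the centromere, a stretch without genes of this count minimum, and then the long arm. ROCK1 (ENSG00000067900, chromosome 18 from 20946906 to 21111851), the first counted gene on the long arm, had 91.8, 88.3 and 89.9 CPM in shNC and 92.7, 88.1 and 86.9 in shYY1, with 97.9, 96.2 and 95.4 in shKDM5C and 102, 105 and 98.9 in Dsh, a log2 fold change of -0.03 for shYY1. GREB1L, a co-activator of retinoic acid receptors, had 27.3, 30.8 and 28.2 CPM in shNC, 22.9, 21.4 and 23.2 in shYY1, 15.2, 15.5 and 16.6 in shKDM5C and 4.49, 4.91 and 6.69 in Dsh. ESCO1, a cohesin acetyltransferase, had 27.7, 30.2 and 29.1 CPM in shNC, 22.4, 21.95 and 23.98 in shYY1, 24.5, 21.8 and 22.7 in shKDM5C and 21.6, 27.6 and 21.3 in Dsh. Both were lower in shYY1 than in shNC without overlap, at -0.37 and -0.37, but in shKDM5C and Dsh they did not return to the shNC level, GREB1L lying far lower in Dsh.

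The edge was placed with a running median over 7 neighbouring genes, as the first gene of 7 in a row for which it was above the midpoint, -0.33, between the median of the members and that of the genes past 40 Mb. That gene was GREB1L, starting at 21242242, with ROCK1 the last gene before it. The running median dropped below the midpoint again further along, to -0.39 at TAF4B and at CDH2 and to -0.45 at ZNF24, so that the line did not stay above it over the rest of the chromosome. Taken singly, ENSG00000264222, at a low level and with overlapping libraries, was the last short-arm gene under the midpoint. GRAMD4P7 on the short arm and ROCK1 on the long arm were above it, and GREB1L and ESCO1 were slightly under it. The step is thus placed to within a few genes, but not closely in bases. ANKRD20A5P, the last member with every shYY1 library below shNC, ended at 14234797, and ROCK1 started at 20946906. Past the edge, the median of the 61 genes from 20 to 40 Mb was -0.03 and that of the 100 genes past 40 Mb was -0.00. The plot along the chromosome shows the running median gene by gene.

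**Figure D2:**
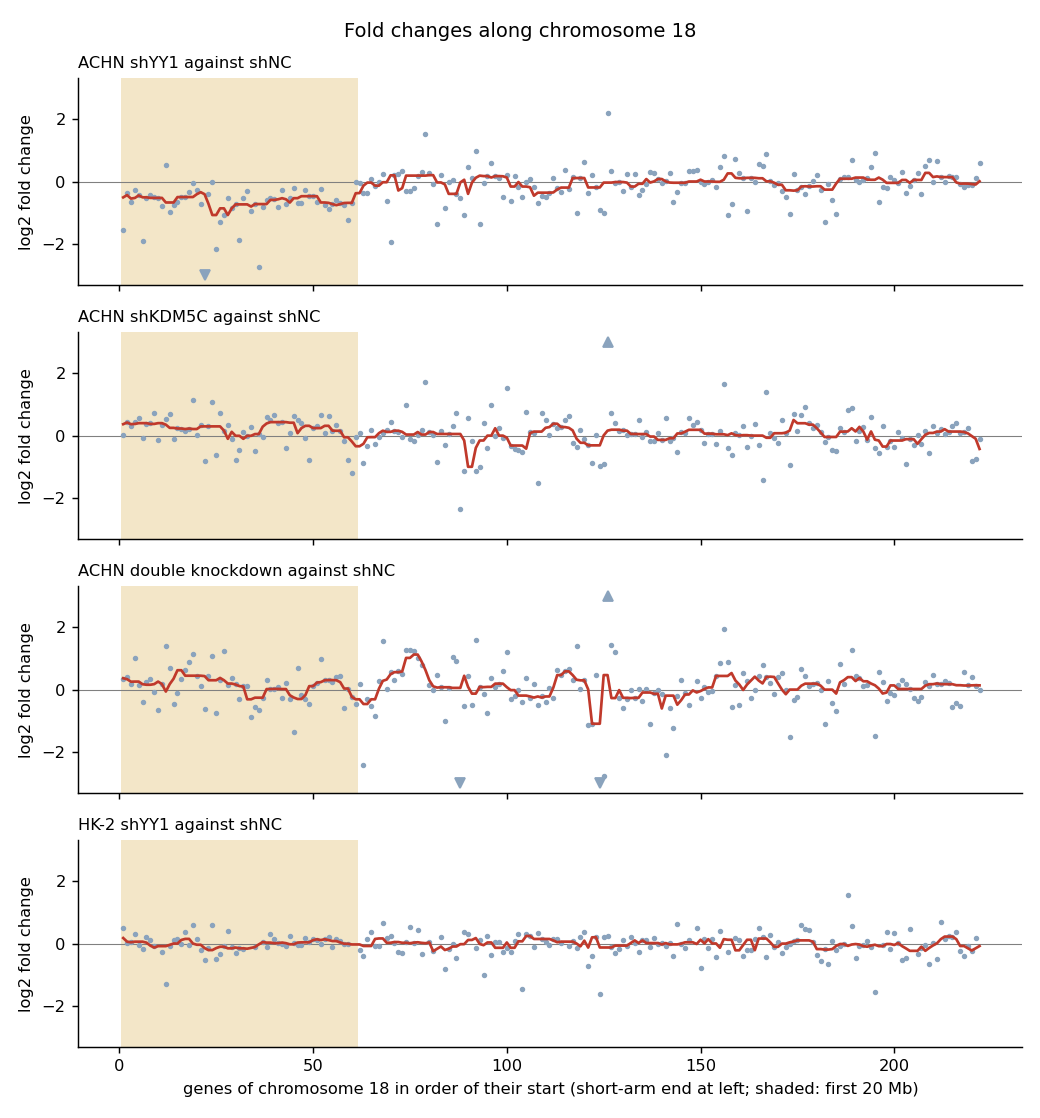
Log2 fold changes of 222 genes of chromosome 18 in order of their start (horizontal axis, gene number from the end of the short arm), in 4 comparisons with shNC of the same line. Points are genes (triangles lie beyond the axis), the red line is the running median over 7 genes, and the shaded part holds the 61 members in this fit. In ACHN shYY1 the line runs below 0 through the whole shaded part and returns to it at the shaded edge, while in HK-2 shYY1 it stays near 0 throughout.

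Of 154 windows of 20 Mb with at least 20 genes, the first window of chromosome 18 had the lowest median in ACHN shYY1, -0.65. The others ran from -0.29 (chromosome 17 from 20 to 40 Mb) to 0.35 (the last window of chromosome 8). Other neighbouring windows also lay together: the last ones of chromosome 8 at 0.25, 0.33, 0.28 and 0.35, and the next window of chromosome 17 at -0.22. In ACHN shKDM5C the first window of chromosome 18 had the highest median of the 154, 0.25, and the others ran from -0.37 to 0.13. In HK-2 shYY1 it ranked 77 of 154 from the lowest, at 0.01, and the other windows spanned -0.10 to 0.12. The window was chosen from the ACHN shYY1 values, so its rank there is no finding.

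**Figure D3:**
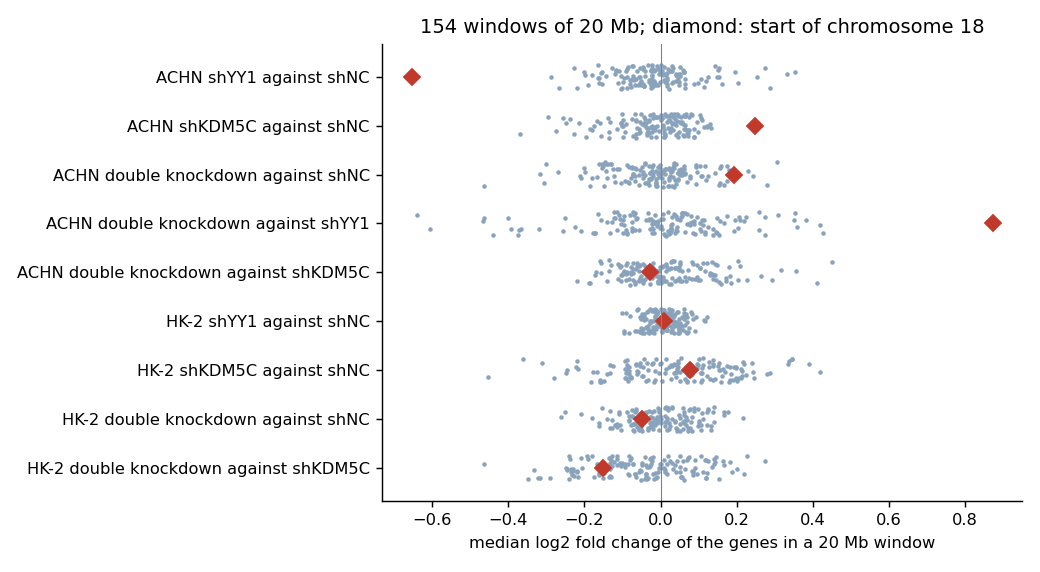
Median log2 fold change (horizontal axis) of the genes in each of 154 windows of 20 Mb, for the 9 comparisons (rows). Grey-blue points are windows, spread vertically for visibility, and the red diamond is the first window of chromosome 18. It lies apart at -0.65 in ACHN shYY1 and at 0.88 in ACHN double knockdown against shYY1, and among the others in every HK-2 comparison.

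Levels are given library by library for 30 of the 31 members with at least 20 CPM on average over the 12 ACHN libraries, in the order replicate 1, 2 and 3. Per kilobase of exon, MYL12B (158.1 CPM per kb), TWSG1 (78.6), MYL12A (69.9) and TUBB6 (42.4) were the most abundant members in ACHN shNC. All 5 genes of cell division and DNA precursor supply were lower in ACHN shYY1, with a median log2 fold change of -0.50. TYMS, thymidylate synthase, which makes the dTMP needed for DNA synthesis, had 65.2, 64.6 and 63.7 CPM in the shNC libraries, 111, 77.8 and 98.2 in shKDM5C, 74.7, 69.3 and 71.9 in Dsh and 48.6, 49.2 and 47.6 in shYY1. NDC80, the kinetochore subunit that binds spindle microtubules, had 19.2, 18.3 and 19.04 CPM in the shNC libraries, 33.02, 30.1 and 30.8 in shKDM5C, 18.3, 18.4 and 17.6 in Dsh and 13.2, 12.8 and 14.4 in shYY1. CEP192, a scaffold that recruits material to the centrosome, had 45.1, 53.4 and 45.99 CPM in the shNC libraries, 55.4, 54.4 and 51.8 in shKDM5C, 50.5, 66.97 and 53.8 in Dsh and 27.8, 31.2 and 29.9 in shYY1. In all 3 the shYY1 libraries lay below the other 9, while NDC80 and TYMS stood higher in shKDM5C than in every other group. CHMP1B, an ESCRT-III subunit that acts in membrane scission, and CEP76, a centriole protein, lay at -0.70 and -0.24.

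The 10 genes of nuclear RNA and chromatin were all lower in ACHN shYY1, with a median of -0.67 and no overlap with shNC in any of them, where 25.9% of all genes lay lower without overlap and this contrast chose the genes. THOC1, a subunit of the THO complex in mRNA export, had 21.2, 22.8 and 22.4 CPM in the shNC libraries, 28.4, 25.6 and 28.7 in shKDM5C, 24.7, 26.4 and 23.9 in Dsh and 14.1, 16.2 and 12.5 in shYY1. RNMT, which methylates the cap of mRNA, had 41.4, 37.2 and 39.1 CPM in the shNC libraries, 42.9, 41.6 and 47.5 in shKDM5C, 50.5, 58.2 and 51.9 in Dsh and 24.4, 24.9 and 25.2 in shYY1. SEH1L, a nucleoporin, had 32.1, 34.8 and 34.1 CPM in the shNC libraries, 51.5, 52.1 and 53.2 in shKDM5C, 43.1, 39.8 and 42.1 in Dsh and 20.8, 17.4 and 17.6 in shYY1. These 3 lay between -0.65 and -0.88 on the log2 scale. SMCHD1, a chromatin protein of the SMC family that keeps the inactive X chromosome silent, had 57.8, 57.6 and 61.2 CPM in the shNC libraries, 78.3, 75.8 and 72.1 in shKDM5C, 65.00, 69.1 and 65.8 in Dsh and 32.3, 36.5 and 35.6 in shYY1. TGIF1, a homeodomain repressor of TGF-β and SMAD signalling, had 94.2, 105 and 94.1 CPM in the shNC libraries, 116, 118 and 112 in shKDM5C, 124, 122 and 129 in Dsh and 72.1, 70.6 and 68.9 in shYY1. ANKRD12, a nuclear ankyrin repeat protein that binds co-activators, had 41.4, 41.5 and 41.8 CPM in the shNC libraries, 43.6, 45.9 and 46.8 in shKDM5C, 42.5, 50.6 and 42.3 in Dsh and 26.4, 30.8 and 29.96 in shYY1. Its groups other than shYY1 lay close together, from 41.4 to 50.6 CPM. The less abundant METTL4, L3MBTL4, ZBTB14 and ZNF519 lay at -0.44, -0.40, -0.71 and -0.75.

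The list of kinase, phosphatase, GTPase and receptor genes, with 12 members, had a median of -0.59 over the 11 in the fit, all below 0. YES1, a kinase of the Src family, had 119.9, 116 and 120.2 CPM in the shNC libraries, 152, 153 and 159 in shKDM5C, 145, 145 and 137 in Dsh and 83.8, 87.6 and 79.9 in shYY1. PTPN2, a phosphatase that acts on JAK kinases, had 23.5, 21.6 and 23.2 CPM in the shNC libraries, 24.8, 25.1 and 22.7 in shKDM5C, 26.97, 27.98 and 29.2 in Dsh and 12.6, 14.3 and 13.99 in shYY1. PPP4R1, a regulatory subunit of protein phosphatase 4, had 73.3, 69.3 and 76.2 CPM in the shNC libraries, 109, 114 and 111 in shKDM5C, 92.5, 89.4 and 89.1 in Dsh and 49.3, 50.01 and 48.6 in shYY1. In these 3 the shYY1 libraries lay below the other 9. The small GTPases of vesicle traffic were alike in this: RAB12 had 23.3, 24.4 and 22.4 CPM in the shNC libraries, 30.8, 28.8 and 29.01 in shKDM5C, 26.8, 24.05 and 27.6 in Dsh and 17.3, 16.5 and 15.6 in shYY1. RAB31 had 63.01, 63.05 and 63.6 CPM in the shNC libraries, 89.2, 94.1 and 87.9 in shKDM5C, 64.6, 67.3 and 61.3 in Dsh and 44.8, 44.97 and 45.2 in shYY1. The shYY1 libraries were again the lowest, and the shKDM5C libraries the highest. TWSG1, a secreted protein that binds BMP ligands, had 342, 348 and 356 CPM in the shNC libraries, 251, 249 and 252 in shKDM5C, 240.2, 256 and 224 in Dsh and 209, 229 and 207 in shYY1. TWSG1 did not follow this ordering: its shKDM5C and Dsh libraries also lay below shNC, and the Dsh range overlapped that of shYY1. PTPRM (ENSG00000173482, chromosome 18 from 7566782 to 8406861), a receptor phosphatase that mediates adhesion between like cells, had 106, 114 and 108 CPM in the shNC libraries, 124, 125 and 122 in shKDM5C, 248, 267 and 267 in Dsh and 53.7, 53.1 and 52.2 in shYY1. Its Dsh libraries were the highest of the ACHN groups. The less abundant ARHGAP28, GNAL and IMPA2 lay at -2.15, -0.28 and -0.21, and LDLRAD4, APCDD1 and ADCYAP1 of the same list did not reach the count minimum.

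Cytoskeleton, adhesion and matrix genes held the widest range, with a median of -0.72 over 8 genes, 7 of them below 0. MYL12A and MYL12B, regulatory light chains of non-muscle myosin II encoded side by side, are near-identical, so that their reads may be split uncertainly. MYL12A had 221, 238 and 221 CPM in the shNC libraries, 212, 219 and 203 in shKDM5C, 184, 155 and 161 in Dsh and 135, 137 and 139.7 in shYY1. MYL12B had 285, 272 and 278 CPM in the shNC libraries, 331, 336 and 329 in shKDM5C, 292, 245 and 246 in Dsh and 173, 177 and 182 in shYY1. TUBB6, a β-tubulin, had 182, 169.9 and 172 CPM in the shNC libraries, 255, 248 and 245 in shKDM5C, 275, 282 and 287 in Dsh and 111, 109 and 108 in shYY1. MYL12A stood highest in shNC, MYL12B in shKDM5C and TUBB6 in Dsh. LAMA1, a laminin chain of basement membranes, had 83.2, 81.9 and 81.9 CPM in the shNC libraries, 140.5, 133 and 137 in shKDM5C, 101, 104 and 100.2 in Dsh and 30.6, 34.8 and 36.2 in shYY1. MTCL1, a protein that crosslinks microtubules, had 156, 151 and 152 CPM in the shNC libraries, 143, 140.4 and 146 in shKDM5C, 197, 198 and 202 in Dsh and 88.1, 83.6 and 85.8 in shYY1. SPIRE1, an actin nucleator, had 29.01, 26.9 and 29.9 CPM in the shNC libraries, 33.5, 32.6 and 35.7 in shKDM5C, 27.2, 34.6 and 31.1 in Dsh and 20.9, 20.2 and 22.00 in shYY1. In each of these 6 the shYY1 libraries were below the other 9. MTCL1 stood highest in Dsh and LAMA1 in shKDM5C.

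EPB41L3 (ENSG00000082397, chromosome 18 from 5392381 to 5630700), which links membrane proteins to the actin cortex, had the lowest fold change of the members. It had 6.33, 6.31 and 6.22 CPM in the shNC libraries, 3.38, 3.77 and 3.75 in shKDM5C, 3.36, 4.42 and 4.52 in Dsh and 0, 0 and 0.0549 in shYY1. That is 359 counts over the 3 shNC libraries, 259 over Dsh and 1 over shYY1, which is 356-fold lower in shYY1 than in shNC with an exact counting interval from 63.4 to 14084. The interval covers counting error only. In HK-2, where its shNC level was 402 ± 6.83 CPM, the gene was expressed in every group.

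The 8 genes of mitochondria, lipid and protein turnover were all lower without overlap (25.9% of all genes were, and this contrast chose the members), with a median of -0.67. USP14, a deubiquitinase of the proteasome, had 87.7, 87.9 and 86.6 CPM in the shNC libraries, 119.6, 117 and 119 in shKDM5C, 114, 118 and 113 in Dsh and 68.3, 69.7 and 69.9 in shYY1. PSMG2, a proteasome assembly chaperone, had 23.2, 25.8 and 26.7 CPM in the shNC libraries, 31.2, 33.6 and 29.8 in shKDM5C, 31.3, 30.2 and 27.5 in Dsh and 17.2, 15.4 and 15.7 in shYY1. AFG3L2, a subunit of the m-AAA protease of the inner mitochondrial membrane, had 56.7, 59.9 and 60.7 CPM in the shNC libraries, 81.6, 79.6 and 76.03 in shKDM5C, 54.8, 53.1 and 49.2 in Dsh and 41.6, 34.5 and 36.7 in shYY1. The shYY1 libraries of these 3 lay below the other 9. LPIN2, a phosphatidate phosphatase of lipid synthesis, had 34.1, 34.7 and 35.4 CPM in the shNC libraries, 57.6, 53.2 and 56.9 in shKDM5C, 50.4, 59.7 and 58.8 in Dsh and 16.7, 18.5 and 18.8 in shYY1. ENOSF1 (ENSG00000132199, chromosome 18 from 670324 to 712676), a mitochondrial enolase family enzyme whose gene overlaps TYMS on the other strand, had 53.2, 49.4 and 53.1 CPM in the shNC libraries, 44.6, 47.9 and 56.1 in shKDM5C, 38.2, 39.2 and 41.4 in Dsh and 12.6, 15.4 and 14.4 in shYY1. Reads from the overlap of ENOSF1 and TYMS cannot be told apart, because counting ignored strand. ENOSF1 lay at a ratio of 0.269, against 0.741 for TYMS. FAM210A, PRELID3A and NDUFV2, the latter counted at 1.25 CPM, lay at -0.60, -0.26 and -0.73.

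The 3 membrane traffic genes lay at a median of -0.57. VAPA, an anchor of the endoplasmic reticulum, had 101, 100.1 and 106 CPM in the shNC libraries, 161, 159.8 and 163 in shKDM5C, 107, 105 and 98.8 in Dsh and 69.7, 67.6 and 72.6 in shYY1. NAPG, the gamma form of the SNAP proteins that recycle SNARE complexes, had 20.2, 22.4 and 25.4 CPM in the shNC libraries, 29.5, 29.2 and 30.6 in shKDM5C, 27.4, 23.3 and 20.9 in Dsh and 14.7, 12.1 and 12.2 in shYY1. MPPE1, a phosphoesterase of GPI anchor maturation, lay at -0.53.

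**Figure D4:**
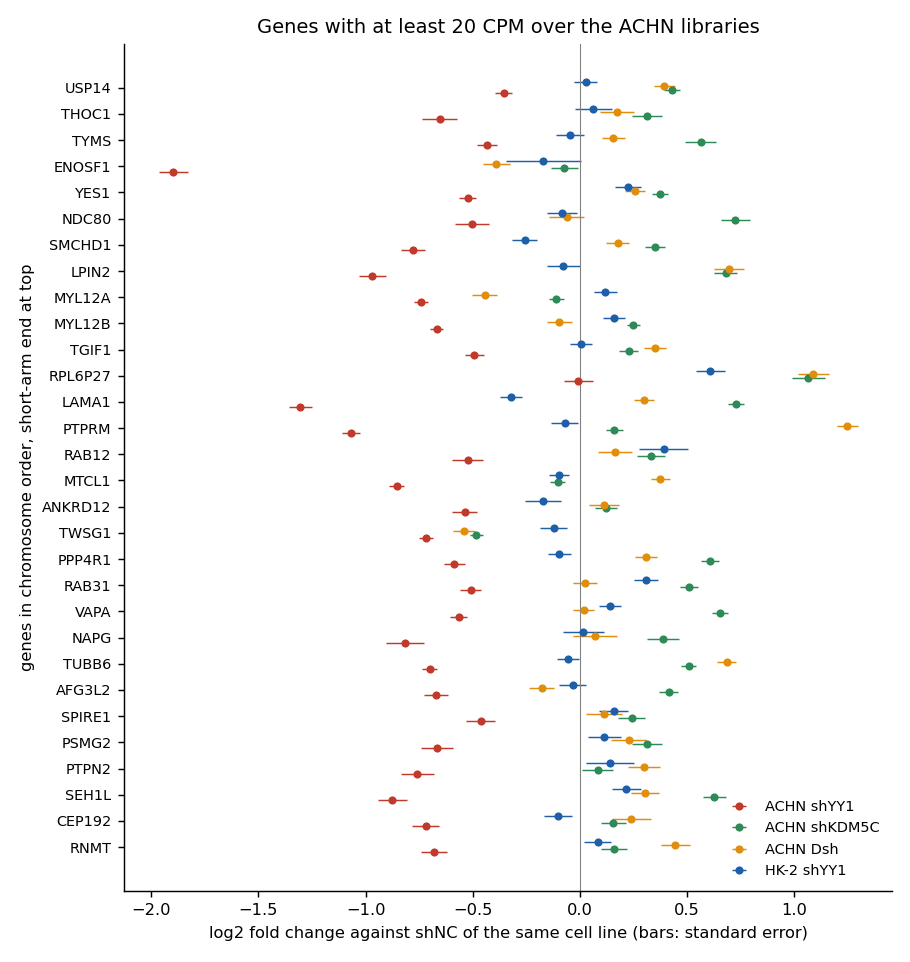
Log2 fold change against shNC of the same line (horizontal axis, bars are the standard error of the edgeR fit) of 30 of the 31 members with at least 20 CPM, in chromosome order from the end of the short arm (top). In ACHN shYY1 (red) 29 of the 30 lie between -1.90 and -0.36 and RPL6P27 lies at -0.01. The points for ACHN shKDM5C (green), ACHN Dsh (orange) and HK-2 shYY1 (blue) lie to the right of the red point for every gene.

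A few members did not follow the rest. EMILIN2 (ENSG00000132205, chromosome 18 from 2847030 to 2915993), an extracellular matrix glycoprotein, was the one member whose shYY1 libraries lay above shNC, with 2.93, 2.97 and 1.86 CPM in shNC, 3.66, 4.08 and 3.73 in shYY1, 4.11, 3.88 and 3.32 in shKDM5C and 6.83, 6.93 and 6.86 in Dsh. RPL6P27, a processed pseudogene of the ribosomal protein gene RPL6 with which it can share reads, had 24.4, 21.7 and 24.6 CPM in the shNC libraries, 47.1, 57.2 and 44.5 in shKDM5C, 53.7, 50.3 and 46.8 in Dsh and 23.3, 24.9 and 23.2 in shYY1. Its shNC and shYY1 libraries overlapped. IMPA2, an inositol monophosphatase, also overlapped, with 16.7, 17.5 and 14.8 CPM in shNC and 15.1, 14.95 and 13.00 in shYY1. DLGAP1-AS1, antisense to DLGAP1, overlapped as well, at 7.61, 7.74 and 5.10 CPM in shNC and 5.81, 4.77 and 4.11 in shYY1.

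The members without an assigned role were mostly non-coding RNAs and pseudogenes, 15 of 16 in the fit below 0 with a median of -0.48. DLGAP1-AS2 lay at -0.34, LINC00667 at -0.28, TYMSOS at -0.28, NDUFV2-AS1 at -1.87, TWSG1-DT at -0.93 and CBX3P2 at -0.52, the last 4 at low counts. ENSG00000266401, ENSG00000267199, ENSG00000273284 and ENSG00000273335 lay at -0.04, -0.47, -0.30 and -2.72. The 9 members that did not pass the filter on low counts in this comparison were CLUL1, DLGAP1, GAPLINC, RNU2-27P, ENSG00000264635, ENSG00000265413, ENSG00000266456, ENSG00000267249 and ENSG00000273352. Just inside the count minimum, CLUL1 had 29 counts over shNC and 22 over shYY1, CBX3P2 39 and 27, and ENSG00000267249 33 and 14. Just outside it, ENSG00000266171 had 20 and 22, ENSG00000266783 had 16 and 23, and ENSG00000263847 had 30 and 22. Of the 70 members, 51 overlap an annotated gene on the other strand, and the 16 members in the fit without such a neighbour had a median of -0.68, 15 of them below 0.

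In ACHN shKDM5C more members lay above shNC than below it. The median log2 fold change was 0.25 over 68 genes, 48 above 0, against -0.01 over all genes, and 34 lay above shNC without overlap (32.1% of all genes did) and 10 below (30.1%). Among the 42 members with at least 5 CPM, 36 were above 0 and the median was 0.32. LPIN2, LAMA1, NDC80, VAPA and SEH1L lay at 0.68, 0.73, 0.72, 0.65 and 0.63, and TWSG1, CHMP1B and EPB41L3 at -0.48, -0.41 and -0.80. This comparison shares its shNC libraries with the one that chose the stretch, so it is described and not tested.

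In the ACHN double-knockdown cells YY1 was reduced less than in shYY1, with log2 fold changes against shNC of -0.51 and -0.88. In these cells more members lay above shNC than below it. Their median was 0.19 over 69 genes, 47 above 0, and 32 lay above shNC without overlap (32.9% of all genes) and 12 below (34.2%). The median over all genes was -0.01. Genes from 20 to 40 Mb had a similar median to the members, 0.17 over 61 genes with 39 above 0. The rest of chromosome 18 had 0.12 over 159 genes with 93 above 0. Against shYY1 the median of the members was 0.88 over 65 genes, 61 above 0. Of these, 55 lay above shYY1 without overlap (34.2% of all genes) and 2 below (34.5%). PTPRM, LPIN2, LAMA1 and ENOSF1 lay at 2.30, 1.64, 1.58 and 1.49 against shYY1, and the 4 members below 0 were IMPA2 (-1.15), GRAMD4P7 (-0.48), PRELID3A (-0.06) and ENSG00000267199 (-0.03). Both comparisons share libraries with the choosing contrast and carry no test.

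The comparison of ACHN Dsh with shKDM5C uses none of those libraries and was tested (edgeR quasi-likelihood test, Benjamini-Hochberg over all genes, adjusted p under 0.05). Its libraries did enter the count minimum, which was averaged over all 12 ACHN libraries. All 70 members were in the fit, with a median log2 fold change of -0.03 against 0.02 over all genes. It called 17 members higher and 20 lower in Dsh, where 31.6% and 30.9% of all genes were called, so that neither share of members exceeded the background. All 3 membrane traffic genes fell, VAPA by 0.63 on the log2 scale. Of the 5 cell division genes NDC80 and TYMS fell and CHMP1B and CEP76 rose. MYL12A, MYL12B and LAMA1 fell and EMILIN2, MTCL1 and TUBB6 rose among the cytoskeleton and matrix genes.

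The largest falls in Dsh against shKDM5C were those of IMPA2, TWSG1-DT and NDC80. IMPA2 (ENSG00000141401, chromosome 18 from 11981025 to 12030883) had 26.6, 25.6 and 24.7 CPM in the shKDM5C libraries and 5.56, 7.96 and 5.97 in the Dsh libraries (log2 fold change -1.98, SE 0.12, adjusted p = 1.62e-10). TWSG1-DT, a divergent transcript beside TWSG1, had 1.11, 1.15 and 0.965 CPM in the shKDM5C libraries and 0.714, 0.218 and 0.484 in the Dsh libraries (log2 fold change -1.15, SE 0.40, adjusted p = 0.0198), and lost its call when ACHN shKDM5C replicate 1 or 2 or Dsh replicate 2 was left out (adjusted p = 0.0598, 0.0618 and 0.0813) and in DESeq2 (adjusted p = 0.0914). NDC80, whose values are given above, fell with log2 fold change -0.78, SE 0.08, adjusted p = 1.06e-07. The largest rises were at low levels, in members too low for the fit of shYY1 against shNC. Their higher Dsh values helped them reach the count minimum, which was averaged over all ACHN libraries. The choice of members therefore favoured such rises, and nothing is read from their p-values. ENSG00000266456 had 0.422, 0.492 and 0.161 CPM in the shKDM5C libraries and 1.48, 1.42 and 1.53 in the Dsh libraries (log2 fold change 2.03, SE 0.39, adjusted p = 2.33e-04). DLGAP1, a scaffold protein of synapses, had 0.316, 0.711 and 0.751 CPM in the shKDM5C libraries and 2.24, 2.34 and 1.61 in the Dsh libraries (log2 fold change 1.79, SE 0.35, adjusted p = 2.84e-04). CLUL1, a clusterin-like gene, had 0.105, 0.274 and 0.643 CPM in the shKDM5C libraries and 0.918, 1.04 and 0.847 in the Dsh libraries (log2 fold change 1.44, SE 0.48, adjusted p = 0.0153), a call lost without shKDM5C replicate 1 or 2 (adjusted p = 0.0966 and 0.0614) and in DESeq2 (adjusted p = 0.0771). Among abundant members PTPRM rose most (log2 fold change 1.09, SE 0.05, adjusted p = 3.15e-12), a gene singled out here after its values were seen.

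In HK-2 cells with the YY1 hairpin the members showed no common shift. Of the 70 members 58 were tested, with a median log2 fold change of 0.01 and the middle of the distribution from -0.10 to 0.16. The median over all genes was 0.01. The test called 8 members higher and 4 lower, against 14.3% and 14.7% of all 16071 genes. Among the 42 members with at least 5 CPM in ACHN, 24 lay above 0 and 18 below. The per-library medians of the HK-2 shYY1 libraries were ratios of 0.997 to 1.05. The difference between the lines was not tested, because the ACHN values had chosen the genes.

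The 4 members that fell in HK-2 shYY1 were EMILIN2, EPB41L3, LAMA1 and SMCHD1. EMILIN2 had 60.7, 55.1 and 63.02 CPM in the shNC libraries and 24.2, 26.3 and 23.2 in the shYY1 libraries (log2 fold change -1.28, SE 0.08, adjusted p = 4.07e-11), the opposite direction to its values in ACHN. EPB41L3 had 396, 409 and 401 CPM in the shNC libraries and 286, 263 and 298 in the shYY1 libraries (log2 fold change -0.51, SE 0.05, adjusted p = 7.87e-08). LAMA1 had 202, 206 and 194 CPM in the shNC libraries and 165, 163 and 153 in the shYY1 libraries (log2 fold change -0.32, SE 0.05, adjusted p = 4.22e-05). SMCHD1 fell by 0.26 on the log2 scale (adjusted p = 0.00147). The groups of the first 3 did not overlap.

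The members that rose were led by RPL6P27, with 46.9, 47.3 and 46.6 CPM in the shNC libraries and 66.4, 73.03 and 75.1 in the shYY1 libraries (log2 fold change 0.61, SE 0.07, adjusted p = 2.73e-07). RAB12 had 18.6, 24.9 and 23.3 CPM in the shNC libraries and 27.4, 25.7 and 34.3 in the shYY1 libraries (log2 fold change 0.39, SE 0.12, adjusted p = 0.0132). DLGAP1-AS1 had 13.4, 12.5 and 15.8 CPM in the shNC libraries and 18.4, 17.6 and 17.98 in the shYY1 libraries (log2 fold change 0.37, SE 0.11, adjusted p = 0.0169). RAB31, YES1, SEH1L, MYL12B and VAPA rose by smaller amounts, from 0.31 down to 0.14, and each of these had a value below 0 in ACHN shYY1. Without HK-2 shNC replicate 1, 2 members were called higher and 4 lower, and without shYY1 replicate 3, 3 and 5, with RAB12 no longer called in either case (adjusted p = 0.105 and 0.147). The share of all genes called in either direction in these fits was 22.4% and 22.1%, against 29.1% with every library. In a fit of all 4 HK-2 groups 3 members were called (5.42% of all genes were), and RAB12, DLGAP1-AS1 and LAMA1 were not (adjusted p = 0.333, 0.125 and 0.162). DLGAP1-AS1 also lost its call when shNC replicate 1 or 2 or shYY1 replicate 1 was left out (adjusted p = 0.0655, 0.0902 and 0.0507).

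In HK-2 shKDM5C none of the 59 members tested passed the threshold in edgeR's quasi-likelihood test with all 3 libraries, 11 had an unadjusted p under 0.05, DESeq2 called 2, and 1.32% of all genes were called. Without replicate 1, 7 members were called higher and 10 lower, against 11.5% and 10.9% of all genes, and the median was -0.03. LAMA1 (0.47, SE 0.04, adjusted p = 1.33e-08) and SPIRE1 (0.48, SE 0.07, adjusted p = 1.10e-05) then rose, and MYL12A (-0.39, adjusted p = 4.03e-06), TWSG1 (-0.39, adjusted p = 2.37e-06), TUBB6 (-0.38, adjusted p = 2.12e-06) and MTCL1 (-0.34, adjusted p = 1.76e-06) fell. With all 3 libraries the median was 0.08. Replicate 1 by itself had a median ratio of 1.25 to shNC against 0.956 and 0.992 for the others.

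In the HK-2 double knockdown members were called in both directions, in shares near those of all genes. Against shNC 60 were tested, the median was -0.05, and 15 were called higher and 18 lower, where 25.5% and 24.3% of all genes were called. EMILIN2 had 60.7, 55.1 and 63.02 CPM in the shNC libraries and 23.6, 24.1 and 24.1 in the Dsh libraries (log2 fold change -1.31, SE 0.08, adjusted p = 2.30e-15). EPB41L3 had 396, 409 and 401 CPM in the shNC libraries and 175, 160.0 and 181 in the Dsh libraries (log2 fold change -1.22, SE 0.05, adjusted p = 7.13e-20). ENOSF1 had 5.96, 5.15 and 5.94 CPM in the shNC libraries and 2.32, 3.12 and 2.87 in the Dsh libraries (log2 fold change -1.03, SE 0.21, adjusted p = 1.47e-04). Its partner on the other strand TYMS fell too (-0.95, adjusted p = 1.53e-13), and 4 of the 5 cell division genes fell. Among the rises ENSG00000265413 had 0.223, 0.56 and 0.261 CPM in the shNC libraries and 1.43, 1.77 and 0.976 in the Dsh libraries (log2 fold change 1.99, SE 0.51, adjusted p = 0.00145). DLGAP1-AS2 had 9.57, 8.90 and 9.17 CPM in the shNC libraries and 25.3, 24.3 and 21.5 in the Dsh libraries (log2 fold change 1.37, SE 0.11, adjusted p = 1.35e-11). ENSG00000266401 had 0.724, 1.51 and 1.62 CPM in the shNC libraries and 2.92, 3.24 and 3.33 in the Dsh libraries (log2 fold change 1.30, SE 0.31, adjusted p = 9.18e-04). SPIRE1, PTPRM, RAB12 and RAB31 rose by 1.21, 0.66, 0.69 and 0.68 on the log2 scale. GAPLINC, a long non-coding RNA outside the fit, had 34 counts over the 3 Dsh libraries and 3 over shNC, a ratio of 11.96 with a counting interval from 3.76 to 60.9. That interval covers counting error in the pooled libraries only, and GAPLINC was not tested.

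Against HK-2 shKDM5C, 58 members were tested in the double knockdown, with a median of -0.15, 4 called higher and 3 lower (6.26% and 5.59% of all genes). EPB41L3 had 493, 358 and 366 CPM in the shKDM5C libraries and 175, 160.0 and 181 in the Dsh libraries (log2 fold change -1.24, SE 0.16, adjusted p = 0.0044). EMILIN2 had 44.1, 61.05 and 62.5 CPM in the shKDM5C libraries and 23.6, 24.1 and 24.1 in the Dsh libraries (log2 fold change -1.22, SE 0.17, adjusted p = 0.00546). NDC80 had 69.4, 49.03 and 47.4 CPM in the shKDM5C libraries and 35.3, 30.9 and 34.5 in the Dsh libraries (log2 fold change -0.72, SE 0.18, adjusted p = 0.044). Those were the falls. L3MBTL4, a chromatin reader, had 0.928, 0.527 and 1.32 CPM in the shKDM5C libraries and 3.21, 3.18 and 2.47 in the Dsh libraries (log2 fold change 1.67, SE 0.38, adjusted p = 0.0333). DLGAP1-AS2 had 8.64, 11.2 and 12.8 CPM in the shKDM5C libraries and 25.3, 24.3 and 21.5 in the Dsh libraries (log2 fold change 1.12, SE 0.19, adjusted p = 0.0116). MYL12A had 101, 117 and 129 CPM in the shKDM5C libraries and 179, 168 and 182 in the Dsh libraries (log2 fold change 0.61, SE 0.13, adjusted p = 0.0254). SPIRE1 rose as well (0.61, adjusted p = 0.0314). Without shKDM5C replicate 1 the counts were 11 higher and 14 lower, where 22.2% and 21.0% of all genes were called, and the median was -0.00. Leaving out shKDM5C replicate 2 left 1 higher and 2 lower, Dsh replicate 1 or Dsh replicate 2 left 0 and 2, and Dsh replicate 3 left 0 and 1. NDC80, L3MBTL4, DLGAP1-AS2 and MYL12A each lost their call when any 1 of the Dsh libraries was left out, and EMILIN2 without Dsh replicate 3 (adjusted p = 0.0509).

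The genes that work with the members but lie on other chromosomes gave medians near those of all genes in ACHN shYY1. Of 69 such partners, subunits of the same complexes, close paralogs and pathway neighbours encoded off chromosome 18, 68 were found in the tables. In ACHN shYY1 their median log2 fold change was 0.03, and 27 were called higher and 18 lower, where 24.2% and 24.5% of all genes were called. The largest changes were those of FYN, a Src-family kinase like YES1 (-2.61, SE 0.17, adjusted p = 7.26e-15), MYH10, a heavy chain bound by MYL12A and MYL12B (-1.66, SE 0.04, adjusted p = 3.47e-28), and SHMT1, of the folate cycle that serves TYMS (-0.99, SE 0.04, adjusted p = 2.29e-20). In ACHN shKDM5C the median of the partners was 0.16, in ACHN Dsh -0.20 against shNC and -0.25 against shYY1, and in HK-2 shYY1 0.06, with 20 called higher and 5 lower of 67, where 14.3% and 14.7% of all genes were called. In ACHN Dsh against shKDM5C it was -0.36, with 8 partners called higher and 46 lower of 68, where 31.6% and 30.9% of all genes were called, and in HK-2 Dsh against shNC -0.09, with 19 higher and 28 lower of 67 (25.5% and 24.3% of all genes). The median was 0.03 in HK-2 shKDM5C, and in HK-2 Dsh against shKDM5C 3 were higher and 3 lower of 67 (6.26% and 5.59% of all genes), with a median of -0.07.

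YY1 binds DNA at a short core, ATGG, in a longer motif, and the promoters of the members were searched for 2 forms of it, AANATGGC and ATGGCGGC, on both strands. RefSeq promoter windows (GRCh38.p14, 250 bases before to 50 after each gene start) were found for 49 of the 70 members, 79 windows in all because some genes have several starts. AANATGGC was in 3 of the 79 windows, 3.80%, and in 6.58% of all 35116 promoter windows. ATGGCGGC was in none of the 79, and in 3.00% of all windows. The 3 windows with a match are printed, the match in capitals, because they are the members whose promoter holds the letters searched for:
EPB41L3: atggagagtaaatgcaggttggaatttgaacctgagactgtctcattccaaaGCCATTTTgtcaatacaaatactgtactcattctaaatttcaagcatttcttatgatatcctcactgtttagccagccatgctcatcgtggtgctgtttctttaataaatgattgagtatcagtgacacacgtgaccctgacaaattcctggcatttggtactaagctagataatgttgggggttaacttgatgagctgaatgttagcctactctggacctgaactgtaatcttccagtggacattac
NDUFV2: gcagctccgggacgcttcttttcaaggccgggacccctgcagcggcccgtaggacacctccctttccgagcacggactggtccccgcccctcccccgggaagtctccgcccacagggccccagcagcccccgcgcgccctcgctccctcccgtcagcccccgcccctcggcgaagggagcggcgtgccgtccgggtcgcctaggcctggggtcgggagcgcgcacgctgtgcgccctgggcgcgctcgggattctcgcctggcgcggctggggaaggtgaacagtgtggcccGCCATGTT
ANKRD12: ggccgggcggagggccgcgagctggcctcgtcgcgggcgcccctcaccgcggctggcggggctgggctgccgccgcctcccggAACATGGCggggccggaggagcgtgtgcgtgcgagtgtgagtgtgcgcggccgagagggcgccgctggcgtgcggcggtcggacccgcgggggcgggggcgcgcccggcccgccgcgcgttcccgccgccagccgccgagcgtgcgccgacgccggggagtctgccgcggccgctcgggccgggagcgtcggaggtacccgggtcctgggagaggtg

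The EPB41L3 window lies at chr18:5521330-5521629 on the minus strand, 1 of 4 windows of that gene, with the match on the strand opposite to the gene at bases 53 to 60. The NDUFV2 window lies at chr18:9102449-9102748 on the plus strand with the match on the opposite strand at bases 293 to 300, and the ANKRD12 window at chr18:9137313-9137612 on the plus strand with the match on the gene's own strand at bases 84 to 91. Bases are counted from 1 at the 5′ end of each printed sequence. In ACHN shYY1 EPB41L3 had the lowest fold change of the members, NDUFV2 was at -0.73 and ANKRD12 at -0.54, and members without a match were lower too. A match of these letters describes the sequence, and binding was not analysed here.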

How the data were processed

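RNA of 24 libraries (12 of ACHN and 12 of HK-2) was measured by sequencing, and the values used are the deposited gene counts. For these the authors used HISAT2 2.0.5 to align read pairs, and counted reads per gene with featureCounts, given as 1.5.0-p3 in the submitters' processing notes and as 2.0.1 in the file headers, with the Ensembl release 84 annotation of GRCh38. Counting ignored strand, and reads of overlapping genes on opposite strands therefore cannot be told apart. Reads of paralogs and pseudogenes such as MYL12A and MYL12B, ROCK1P1 and ROCK1 or RPL6P27 may be split. The counts were deposited without normalization.

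Counts were scaled by TMM, separately for the 12 libraries of each line, and each comparison of 3 against 3 libraries was fitted with edgeR 4.0.16 in R 4.3.3 (filterByExpr, quasi-likelihood F test, two-sided, Benjamini-Hochberg over all genes tested, called at an adjusted p under 0.05). The procedure was tested on simulated data. The 4 ACHN comparisons that use shYY1 or shNC libraries were not tested for the members. Per-library medians used log2(CPM + 0.5). Counting intervals are exact at the 95% level. The members and gene lists were chosen with earlier results of these data known, and the genome windows and the alternative of members with at least 5 CPM were chosen after seeing the data. All members but 1, which is not reported here, are named, and values in every library are given for members with at least 20 CPM, the 3 last before 20 Mb and the 3 genes after it, the 3 largest called changes in each direction of a tested comparison, and members opposite in sign to the median. Partner genes are given by counts and medians with up to 3 examples. Alternatives used DESeq2 1.42.0, other scalings, no filter, a fit of all 4 groups of a line, a replicate block, at least 50 counts and leaving out each library.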

Additional observations from a re-analysis of the deposited data

Results flagged for a closer look

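Some results lay in opposite directions in ACHN and HK-2 under the same contrast. The log2 fold change of EMILIN2 was 0.54 in ACHN shYY1 against shNC and -1.28 in HK-2, and that of RAB12 was -0.52 in ACHN and 0.39 in HK-2. In Dsh against shNC EMILIN2 was at 1.40 in ACHN and -1.31 in HK-2. EMILIN2 was higher in Dsh than in shKDM5C in ACHN (log2 fold change 0.87) and lower in HK-2 (-1.22). MYL12A was lower in ACHN (-0.33) and higher in HK-2 (0.61). The mean over the 3 Dsh libraries of the median of the members against shNC was 0.22 on the log2 scale in ACHN and -0.0664 in HK-2. For the genes, the knockdown libraries lay above every control library in one line and below every control library in the other, and for the medians every Dsh library lay on one side of 0 in ACHN and on the other in HK-2. Among the members tested in both lines, such opposite separations were found for 9 of 55 in shYY1, 4 of 59 in shKDM5C, 12 of 59 in Dsh against shNC and 6 of 58 in Dsh against shKDM5C. They were not counted over all genes, so nothing about the members is read from them. Separation within a line was common: in ACHN Dsh against shNC 32.9% of all genes lay higher without overlap and 34.2% lower. In HK-2 Dsh against shNC 4496 of 16217 genes lay higher without overlap and 4550 lower. The difference between the lines was not tested in any of these contrasts.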

How the results depend on the processing

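Every library came from 1 of 2 cell lines, and the ACHN shYY1 and shNC libraries that chose the members also supply their values, so stability across settings is no independent support. No value past the threshold changed sign under a setting, but medians of the members near 0 did: with a library left out that of HK-2 shKDM5C ran from -0.03 to 0.17, and that of HK-2 Dsh against shNC from -0.09 to 0.01. With total counts the medians of ACHN Dsh against shKDM5C, HK-2 shYY1 and HK-2 shKDM5C were 0.03, -0.03 and -0.01, against -0.03, 0.01 and 0.08. The median of the members in ACHN shYY1, -0.65, was -0.63 for members with at least 5 CPM and ran from -0.65 to -0.60 when 1 library was left out. In ACHN shKDM5C the median, 0.25, was 0.20 with total counts, 0.31 for members with at least 50 counts and 0.32 for those with at least 5 CPM, and 0.21 to 0.28 with a library left out. The medians of ACHN Dsh ran from 0.16 to 0.26 against shNC and from 0.84 to 0.94 against shYY1. With at least 50 counts the edge moved to ESCO1, at 21529281.

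The number of members called in ACHN Dsh against shKDM5C, 37, ran from 28 to 34 with a library left out. In HK-2 shYY1 it was 12, 3 in a fit of all 4 groups and 6 to 12 with a library left out, 6 without shNC replicate 1. In HK-2 shKDM5C it was 0, 2 in DESeq2, 8 with all 4 groups and 0 to 17 with a library left out, 17 without shKDM5C replicate 1. In HK-2 Dsh against shNC it was 33, 16 with all 4 groups and 29 to 32 with a library left out. Against HK-2 shKDM5C it was 7, 19 with all 4 groups and 1 to 25 with a library left out: 25 without shKDM5C replicate 1, 3 without shKDM5C replicate 2, 2 without Dsh replicate 1 or 2 and 1 without Dsh replicate 3. With a library left out, the share of all genes called ran from 55.39% to 60.02% in ACHN Dsh against shKDM5C. In HK-2 this share ran from 22.1% to 26.6% in shYY1 and from 0% to 22.3% in shKDM5C. For HK-2 Dsh it ran from 44.1% to 46.1% against shNC and from 2.31% to 43.3% against shKDM5C. The counts of members with a library left out are to be read beside these shares. Except for HK-2 shYY1 with all 4 groups, the share of all genes called in the other fits is not given here. Nothing about the members is therefore read from the counts in those fits. The causes of the changes in the counts were not tested. Of 318 values of named members under an alternative, 283 stayed on their side of the threshold and 35 lost it. Samples with the same replicate number did not deviate together (correlations from -0.28 to 0.10), so the numbers do not pair them. With the replicate number as a block, 3 members were called in HK-2 Dsh against shKDM5C, and the other counts stayed within 1.5 times. Depth limits the members near 1 CPM, whose values rest on few counts.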
